A study of Mus musculus with 37 samples.

Results

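Iron enters cells, is stored in them and leaves them through a small set of proteins, and 9 genes of that set were followed here in mouse left ventricle after cardiac arrest. The genes were taken by symbol from a table of 56748 genes: Tfrc, Slc11a2 and Steap3 for uptake, Fth1 and Ftl1 for storage, Slc40a1 and Cp for export, and Hamp and Ireb2 for regulation. Each symbol matched 1 gene. Bulk RNA sequencing covered 37 C57BL/6J mice of both sexes, aged 8–10 weeks, in 9 groups. Naïve mice (n = 5) received isoflurane anaesthesia and were neither intubated nor injected. Adr mice, which the sample labels call sham, were anaesthetised with isoflurane, intubated and ventilated, given 40 µL of saline into the left ventricle and then 500 µL of adrenaline at 15 µg/mL. Arrest mice received 40 µL of 0.5 M KCl in place of saline, spent 8 min in asystole, and were resuscitated with the same adrenaline and chest compressions. Hearts of Adr and Arrest mice were collected after 0.5 and 1 day and after 3 and 7 days (n = 4 for each arm and time), so adrenaline, ventilation and injection separate every other group from Naïve and are shared by Adr and Arrest. The tissue was left ventricle without the apex, flushed with saline.

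In textbook terms, transferrin-bound iron enters through the transferrin receptor (Tfrc), is reduced in the endosome by a ferrireductase (Steap3) and crosses the membrane through a divalent metal transporter (Slc11a2). Iron that is not used is kept in ferritin, a shell of heavy (Fth1) and light (Ftl1) chains, or leaves through ferroportin (Slc40a1), helped by the ferroxidase ceruloplasmin (Cp). Hepcidin (Hamp) is a peptide hormone, best known from liver, that removes ferroportin from the membrane. Iron regulatory proteins, of which Ireb2 encodes one, bind iron-responsive elements when iron is scarce. A bound element in a 5′ untranslated region (UTR) holds back translation, and bound elements in a 3′ UTR protect the mRNA from decay. RNA abundance reads the 3′ UTR arm of this control more directly than the 5′ UTR arm.

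Letters of the iron-responsive element were looked for in the UTRs of all members, and any part of the element in the values here was not tested. The search took 30-base windows with a C, 5 further bases and the loop CAGTG, in which the 5 bases before the loop pair with the 5 after the base that follows it, on the transcribed strand of UTRs in the GENCODE annotation of GRCm38. Capitals mark the C and the loop. Fth1, Ftl1 and Slc40a1 each held 1 match in the 5′ UTR, and Tfrc held 4 in the 3′ UTR, all in exon 19.
Fth1 5′ UTR, chr19:9982732-9982761, plus strand: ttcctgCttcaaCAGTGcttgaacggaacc
Ftl1 5′ UTR, chr7:45459778-45459807, minus strand: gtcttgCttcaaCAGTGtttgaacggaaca
Slc40a1 5′ UTR, chr1:45925464-45925493, minus strand: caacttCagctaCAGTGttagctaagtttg
Tfrc 3′ UTR, chr16:32631219-32631248, plus strand: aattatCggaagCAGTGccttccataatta
Tfrc 3′ UTR, chr16:32631598-32631627, plus strand: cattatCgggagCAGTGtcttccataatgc
Tfrc 3′ UTR, chr16:32631663-32631692, plus strand: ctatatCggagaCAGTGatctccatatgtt
Tfrc 3′ UTR, chr16:32631710-32631739, plus strand: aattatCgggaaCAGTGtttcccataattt
The same letters were found in the 5′ UTRs of 28 of 20848 genes (0.134%) and in the 3′ UTRs of 127 of 20928 genes (0.607%). The letters were not found in the UTRs of Slc11a2, Steap3, Cp, Hamp and Ireb2, where an element without all 5 pairs would be missed. These are matches of letters, not measured binding. RefSeq promoter windows of GRCm38.p6 run from 250 bases before to 50 after a start. The hypoxia-response core ACGTG lay on either strand in both Tfrc windows, which overlap and share the same single site. It lay in none of the windows of Steap3, Fth1, Ftl1, Cp, Hamp and Ireb2, and in 19.6% of all 32851 windows. Counted by gene, 21.8% of 27025 genes had it. The loop letters with their C, on either strand, lay in 1 Tfrc window and in the Hamp window, and in 19.7% of all windows. Slc11a2 and Slc40a1 have no window in the table used, so their promoters were not searched.

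The libraries held 13.2 to 30.2 M fragments counted on genes. Values are FPKM, which divides the fragments of a gene by its length and by a library size, so levels can be compared between genes per length. The size in use was not the count of fragments on genes, and exceeded the 17.2 M counted in Adr 3 days replicate 3. A pair of libraries stood apart. In Adr 3 days replicate 3, mitochondrial genes took 9.36% of fragments, the summed cardiomyocyte markers reached 3164 FPKM and the summed macrophage markers 2925 FPKM, against at most 1397 FPKM of macrophage markers elsewhere. The study's methods state that a library of this group was left out for poor quality, and the labels do not mark which, so all 4 libraries of Adr at 3 days enter the values and the SEs here. Naïve replicate 4 had 13475 genes above 0 and no neutrophil marker above 0. Cardiomyocyte markers stood between 6557 and 15173 FPKM in the 36 libraries other than Adr 3 days replicate 3, and summed hepatocyte markers never exceeded 3.56 FPKM.

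Tfrc and Fth1 were the members that passed the test, both at 1 day after arrest and in opposite directions. Differences were fitted with limma on log2(FPKM + 1) over 16530 genes, with Benjamini-Hochberg adjustment and a threshold of 0.05, and all 9 members passed the filter on low values. In Arrest at 1 day against Naïve 2 of 9 members were called, 1 higher and 1 lower, where 7.11% of all genes tested were called. In the 8 comparisons with Naïve the same 5 Naïve libraries serve as the reference, so those comparisons are not independent. No other comparison called a member. Against Naïve, the share of all genes called was 0.188% for Adr at 0.5 days and 0.69% for Adr at 1 day, and it was 0% in Adr for 3 days and likewise 0% for 7 days. It was 3.21% for Arrest at 0.5 days, 0.139% for Arrest at 3 days and 0% for the last time. When Arrest was set against Adr of the same time, 0% of genes were called for each of 0.5 days, 1 day and 3 days, and 0.00605% for 7 days. Arrest at 1 day against Arrest at 7 days called 1.89% of genes, and the test of any difference among the 9 groups called 3.9%. In those 13 comparisons 0 of 9 members passed in limma, and none did with limma-voom on the recovered fragments. At an unadjusted p of 0.05, 0 to 3 members passed in each, where 416 to 3002 of the 16530 genes did.

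**Figure D1:**
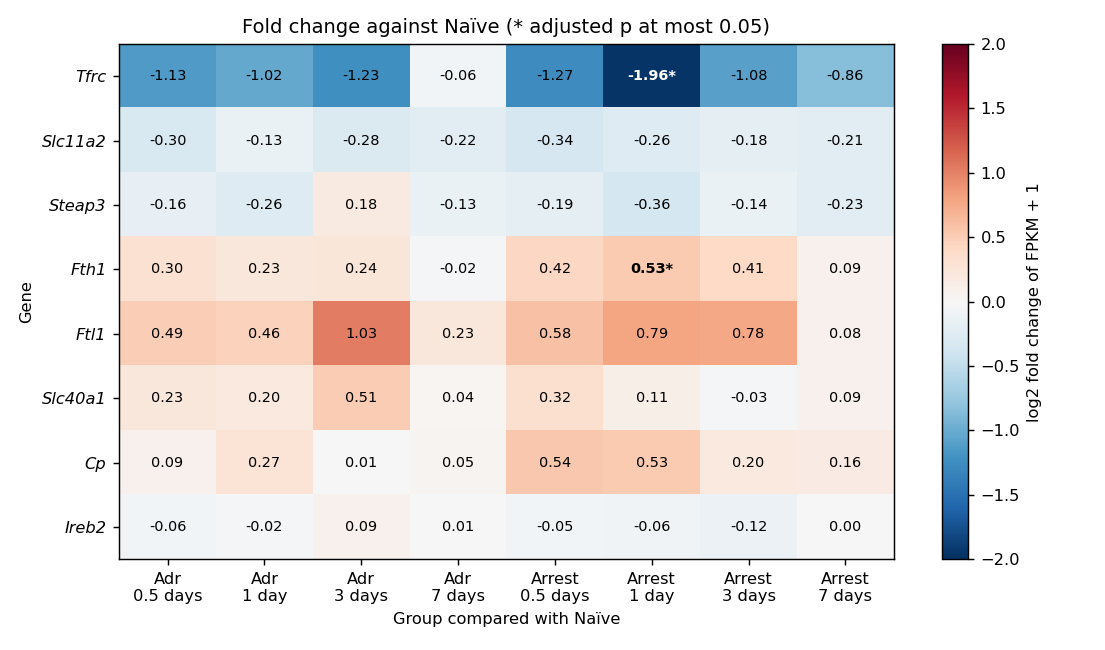
Colours and numbers give the log2 fold change of FPKM + 1 for 8 members (rows) in each Adr and Arrest group against Naïve (columns), and an asterisk marks an adjusted p at or below the threshold. Tfrc at -1.96 and Fth1 at 0.53 in Arrest at 1 day carry the asterisks, and Hamp is left out because every Naïve library was at 0.

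Tfrc, which takes up iron bound to transferrin, fell most. Naïve libraries gave 16.5, 11.0, 18.0, 20.98 and 14.95 FPKM. Arrest hearts at 1 day gave 3.13, 2.48, 1.65 and 8.29 FPKM, every one below every Naïve library. The log2 fold change was -1.96 (SE 0.50, limma adjusted p = 0.014), with means of 16.3 ± 3.70 FPKM (SD, n = 5) and 3.89 ± 3.00 FPKM (SD, n = 4).

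The other Arrest times lay between these. Tfrc read 2.93, 8.21, 7.90 and 6.62 FPKM at 0.5 days, 5.92, 6.25, 9.06 and 7.10 FPKM at 3 days, and 8.91, 7.39, 11.1 and 6.63 FPKM at 7 days. The libraries at 0.5 and 3 days lay below every Naïve library, and those at 7 days overlapped with Naïve by 1 library. The log2 fold changes against Naïve were -1.27 at 0.5 days (SE 0.50, limma adjusted p = 0.156), -1.08 at 3 days (SE 0.50, limma adjusted p = 0.32) and -0.86 at 7 days (SE 0.50, limma adjusted p = 0.967).

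Adr hearts were divided in Tfrc. At 0.5 days they gave 15.8, 14.3, 1.43 and 4.78 FPKM, and at 1 day 20.9, 15.5, 4.23 and 1.57 FPKM. In both groups a pair of libraries stood within the Naïve range and the other pair below every Naïve library. Each pair held 1 male and 1 female by Xist and Ddx3y, so the division did not follow sex. At 3 days the values were 13.3, 4.85, 6.51 and 3.33 FPKM, and at 7 days 10.8, 12.7, 19.3 and 20.7 FPKM, the latter close to Naïve. The log2 fold changes against Naïve were -1.13 at 0.5 days (adjusted p = 0.293), -1.02 at 1 day (adjusted p = 0.333), -1.23 at 3 days (adjusted p = 0.265) and -0.06 at 7 days (adjusted p = 1), by limma.

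Arrest and Adr were not told apart in Tfrc. At 1 day the log2 difference of Arrest from Adr was -0.94 (SE 0.52, limma adjusted p = 0.788) and at 7 days -0.80 (SE 0.52, limma adjusted p = 1). Over group means the order ran from Naïve (16.3 FPKM) and Adr at 7 days (15.8 FPKM) down to Arrest at 0.5 days (6.42 FPKM) and Arrest at 1 day (3.89 FPKM), and no gap between neighbours in that order exceeded the larger SD of the pair.

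The call in Tfrc was kept in 8 of 9 fits that left out 1 library of the compared groups and was lost without Arrest 1 day replicate 3, where the log2 fold change was -1.73 (limma adjusted p = 0.072). Neither compared group contains Adr 3 days replicate 3, and without Naïve replicate 4 the fold change was -1.87 on the log2 scale. The numbers in the sample descriptions ran from 116 to 127 in Naïve and from 70 to 95 in Arrest at 1 day, so any order in handling that they mark and the group cannot be told apart. With that number as a covariate the fold change stayed at -1.96 on the log2 scale and the limma adjusted p rose to 0.242.

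In bulk tissue fewer cells of a type and less RNA per cell cannot be told apart. Tfrc is abundant in red cell precursors, so red cell markers are given beside it. The sum of 8 such markers ran from 1698 to 3951 FPKM in Naïve and from 1564 to 1720 FPKM in Arrest at 1 day. Most of this sum was haemoglobin, while Slc4a1, a membrane protein of red cells, stayed at or below 0.476 FPKM in both groups. Alas2 ranged from 10.1 to 15.7 FPKM in Naïve and from 9.55 to 10.3 FPKM in Arrest at 1 day. Of the 8 markers, Hbb-bt was lower without overlap (87.4 to 183 and 55.7 to 79.8 FPKM) and the other 7 overlapped. Their part in the fall of Tfrc was not tested. Summed cardiomyocyte markers stood at 10954 to 13033 FPKM in Naïve and 12699 to 14599 FPKM in Arrest at 1 day. Within that list Tnnt2 and Myl2 were higher and Ryr2 lower in every Arrest library than in every Naïve library.

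Fth1, the ferritin heavy chain with ferroxidase activity, was the most abundant member and rose. Naïve libraries gave 496, 570, 627, 711 and 587 FPKM. Arrest hearts at 1 day gave 882, 764, 1018 and 793 FPKM, every one above every Naïve library. The log2 fold change was 0.53 (SE 0.15, limma adjusted p = 0.023), or 1.44 times on the means of 864 ± 114 (SD, n = 4) and 598 ± 79.0 FPKM (SD, n = 5).

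Fth1 had higher means than Naïve at the neighbouring times too, without passing the test. Values were 957, 817, 799 and 636 FPKM at 0.5 days (log2 0.42, unadjusted p = 0.0073, limma adjusted p = 0.107) and 694, 926, 763 and 783 FPKM at 3 days (log2 0.41, unadjusted p = 0.009, limma adjusted p = 0.196). At 7 days Arrest hearts gave 569, 606, 834 and 550 FPKM, 3 of 4 within the Naïve range. Arrest at 1 day exceeded Arrest at 7 days by 0.45 on the log2 scale (SE 0.15, limma adjusted p = 0.13).

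Adr hearts gave 695, 756, 778 and 697 FPKM of Fth1 at 0.5 days, 672, 623, 721 and 771 FPKM at 1 day, 581, 588, 830 and 864 FPKM at 3 days, and 653, 571, 542 and 574 FPKM at 7 days. All of these groups overlapped with Naïve. Arrest exceeded Adr at 1 day by 0.31 on the log2 scale (SE 0.15), with an unadjusted p of 0.0557 and a limma adjusted p of 0.759.

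The call in Fth1 was less stable than that in Tfrc. It was kept in 6 of 9 fits without 1 library and was lost without Naïve replicate 1 (limma adjusted p = 0.068), Arrest 1 day replicate 1 (0.067) or Arrest 1 day replicate 3 (0.113). After quantile normalization the log2 fold change was 0.21 (limma adjusted p = 0.46), and with the description number as a covariate it was 0.63 (limma adjusted p = 0.187). Without Naïve replicate 4 it was 0.60.

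**Figure D2:**
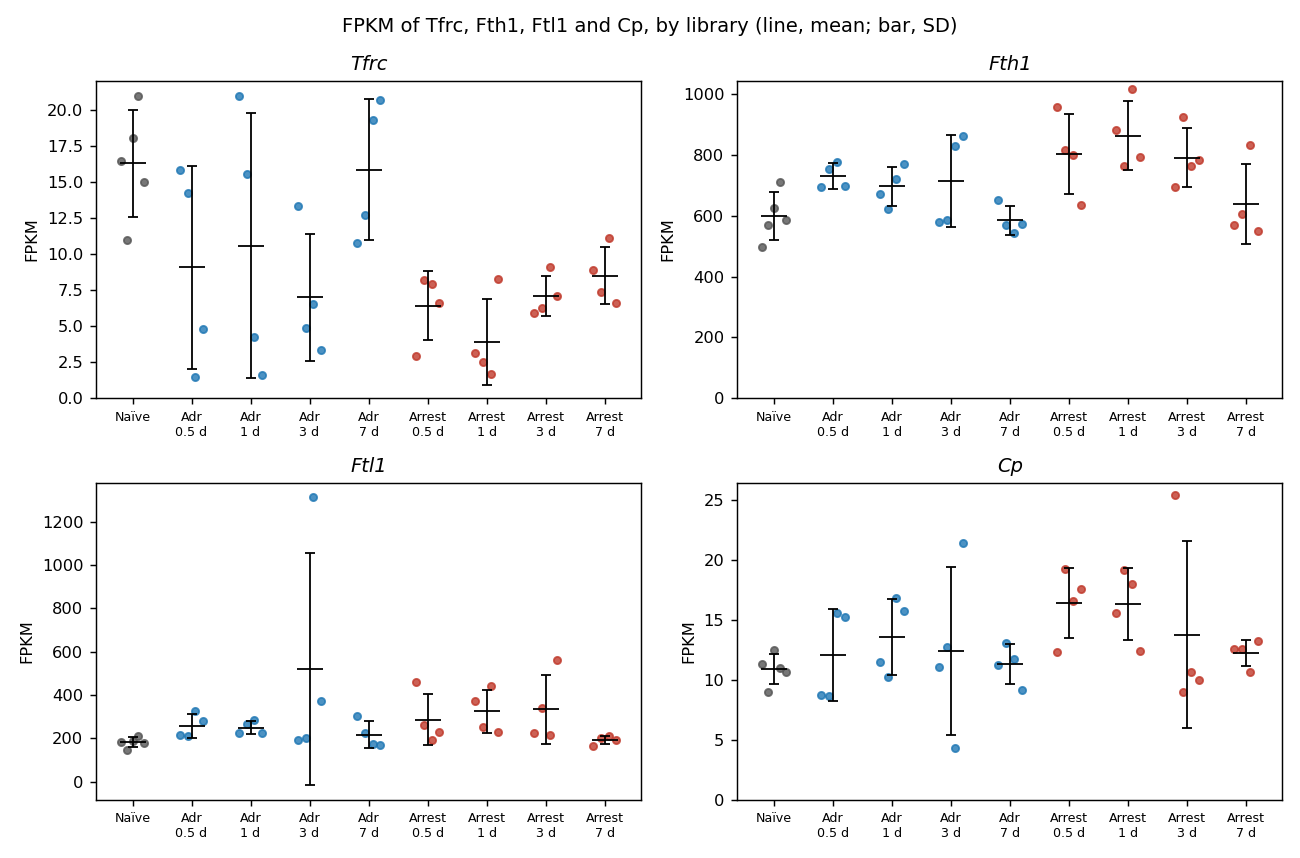
Points are FPKM in single libraries of Tfrc, Fth1, Ftl1 and Cp for the 9 groups, black lines are means and bars are SDs. All 4 Arrest libraries at 1 day lie below every Naïve library in Tfrc and above every Naïve library in Fth1 and Ftl1, while Adr 3 days replicate 3 stands at 1313 FPKM of Ftl1.

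Ftl1, the ferritin light chain, which favours mineral formation inside the shell, had higher values beside Fth1 and wider spread. Naïve libraries gave 184, 146, 188, 210 and 180 FPKM, and Arrest hearts at 1 day 370, 254, 444 and 230 FPKM, with no overlap. The log2 fold change was 0.79 (SE 0.36, unadjusted p = 0.0333, limma adjusted p = 0.182). The SE is shared by the whole model, in which Adr 3 days replicate 3 gave 1313 FPKM beside 192, 199 and 372 FPKM in the same group. With that library left out of the fit, the limma adjusted p of Arrest at 1 day was 0.042.

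Arrest hearts gave 459, 262, 194 and 230 FPKM of Ftl1 at 0.5 days, 227, 338, 215 and 559 FPKM at 3 days, and 164, 200, 211 and 193 FPKM at 7 days. The libraries at 3 days lay above every Naïve library (log2 0.78, limma adjusted p = 0.32), and those at 7 days did not differ beyond the spread of Naïve. Adr hearts gave 215, 208, 326 and 281 FPKM at 0.5 days, 225, 266, 284 and 222 FPKM at 1 day, and 302, 224, 174 and 169 FPKM at 7 days. Adr at 1 day lay above every Naïve library (log2 0.46, limma adjusted p = 0.577).

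Macrophages hold much ferritin light chain, and Ftl1 followed their markers and, about as closely, those of fibroblasts. The library with the highest sum of 8 macrophage markers was also the highest in Ftl1. Over the 37 libraries the rank correlation was 0.58, and on the log scale r was 0.75, or 0.53 without the 2 libraries that stood apart. In Fth1 the r with macrophage markers was 0.31. With summed fibroblast markers Ftl1 gave an r of 0.74 on the log scale, or 0.55 without those 2 libraries. With neutrophil markers its r was 0.44, so the trend was not particular to macrophages. The macrophage marker sums of the groups compared overlapped, at 431 to 713 FPKM in Naïve and 441 to 684 FPKM in Arrest at 1 day. Lyz2, though, made up most of each of these sums. Of the 8 markers 3 were higher in every Arrest library than in every Naïve library, Cd68 (5.26 to 10.5 FPKM in Naïve and 11.4 to 16.8 FPKM in Arrest), Cd163 (3.38 to 4.42 and 6.27 to 11.7 FPKM) and Mrc1 (7.11 to 8.36 and 8.40 to 13.7 FPKM), while Adgre1, Csf1r, Lyz2, C1qa and C1qb overlapped. Among those that overlapped, the medians of Adgre1 and Csf1r were lower in Arrest (5.13 and 10.6 FPKM) than in Naïve (6.26 and 12.4 FPKM). The medians of Lyz2, C1qa and C1qb were higher. The share of all genes without overlap was not counted, for this or any other marker list. The part of macrophages in the ferritin values was not tested.

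Of the ferritin copies in the table with a mean of at least 1 FPKM, Ftl1-ps1 was the only one besides the members, at a mean of 4.56 FPKM and 0.962 to 22.6 FPKM over libraries. How the counting shared fragments among near-identical copies is not given in the sources used here, so values of Fth1 and Ftl1 carry that uncertainty. The ratio of Fth1 to Ftl1 had medians between 2.64 and 3.33 in all 9 groups and fell to 0.632 in Adr 3 days replicate 3.

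Read together, uptake receptor and heavy chain ran opposite to each other over libraries. Tfrc as a percent of Fth1 had a median of 2.87 in Naïve (1.93 to 3.32) and of 0.34 in Arrest at 1 day (0.162 to 1.04), and it stood at 1.27 in Arrest at 7 days (1.20 to 1.57). Over the 37 libraries r between Tfrc and Fth1 was -0.59 on the log2 scale, or -0.62 without the 2 libraries that stood apart, and r between Fth1 and Ftl1 was 0.65. These correlations describe libraries that share groups and have no test.

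**Figure D3:**
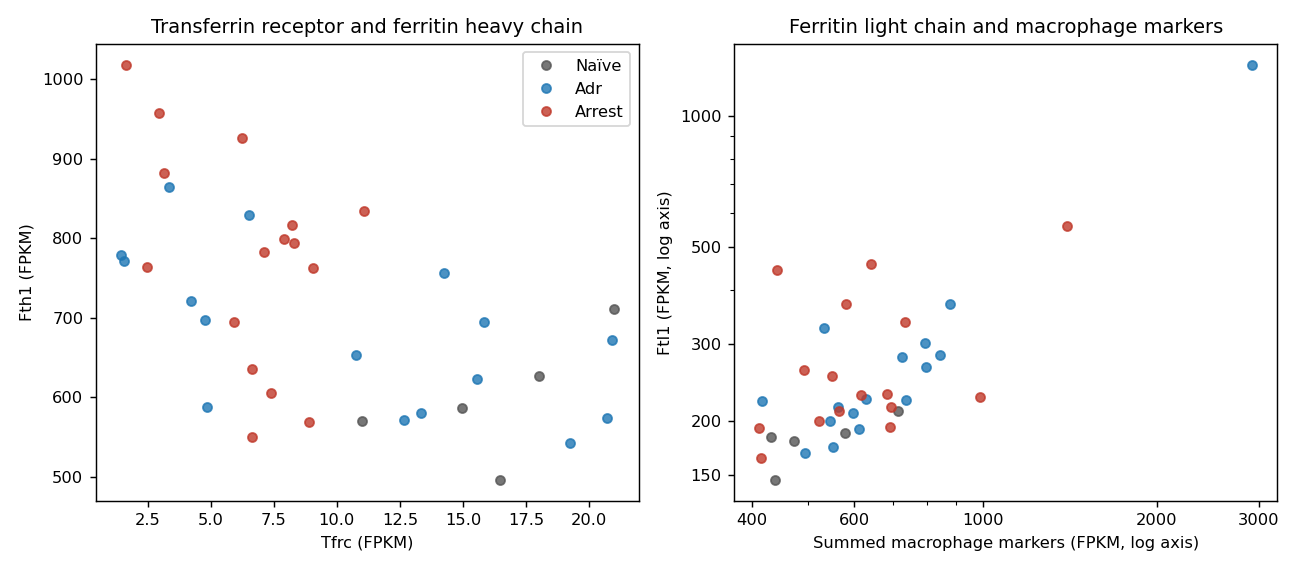
Left, FPKM of Fth1 against FPKM of Tfrc, and right, Ftl1 against summed macrophage markers on log axes, with 1 point per library coloured by Naïve, Adr or Arrest. Libraries with low Tfrc tend to high Fth1 (r = -0.59 on the log2 scale), and Adr 3 days replicate 3 is the point at 2925 FPKM of macrophage markers.

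The other uptake members did not pass. Slc11a2, the divalent metal transporter, ranged from 2.44 to 7.36 FPKM over all libraries. Naïve libraries gave 3.93, 3.87, 2.84, 7.36 and 4.01 FPKM, and Arrest hearts at 1 day 2.64, 2.92, 2.51 and 6.20 FPKM, so the groups overlapped. All 8 fitted differences from Naïve were below 0, from -0.34 in Arrest at 0.5 days to -0.13 in Adr at 1 day (SE 0.19), and Naïve replicate 4 was the highest of all libraries. Steap3, the endosomal ferrireductase, ranged from 3.07 to 9.98 FPKM. It gave 6.16, 6.49, 6.10, 9.98 and 5.28 FPKM in Naïve and 3.07, 4.67, 5.59 and 7.36 FPKM in Arrest at 1 day (log2 -0.36, SE 0.20, limma adjusted p = 0.311).

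The exporters did not pass either. Slc40a1, the only known cellular iron exporter of mammals, ranged from 1.53 to 6.88 FPKM. Naïve libraries gave 3.57, 2.001, 2.29, 3.03 and 3.44 FPKM, and Arrest hearts at 1 day 2.92, 2.67, 4.36 and 2.76 FPKM. Its widest difference from Naïve was in Adr at 3 days, with 3.51, 2.73, 6.88 and 5.61 FPKM (log2 0.51, SE 0.21, unadjusted p = 0.0229, limma adjusted p = 0.278), and the 6.88 FPKM belongs to replicate 3, the library that stood apart. Arrest at 3 days differed from that Adr group by -0.54 on the log2 scale (SE 0.23, unadjusted p = 0.0234, limma adjusted p = 0.90).

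Cp, which oxidises iron on its way out, gave 11.3, 8.997, 12.5, 11.0 and 10.7 FPKM in Naïve. Arrest hearts gave 12.4, 19.2, 16.6 and 17.6 FPKM at 0.5 days and 15.6, 19.2, 18.0 and 12.4 FPKM at 1 day. In each of these groups 3 libraries lay above every Naïve library and the lowest lay just under the highest Naïve value. The log2 fold changes were 0.54 (SE 0.27, limma adjusted p = 0.289) and 0.53 (SE 0.27, limma adjusted p = 0.254). At 3 days 1 library reached 25.4 FPKM beside 9.01, 10.7 and 10.02 FPKM. In Adr hearts at 0.5 and 1 day the pairs with low Tfrc, replicates 3 and 4, were those with high Cp, at 15.6 and 15.3 FPKM against 8.76 and 8.70 FPKM, and at 16.8 and 15.8 FPKM against 11.5 and 10.2 FPKM. Over all libraries r between Tfrc and Cp was -0.51.

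**Figure D4:**
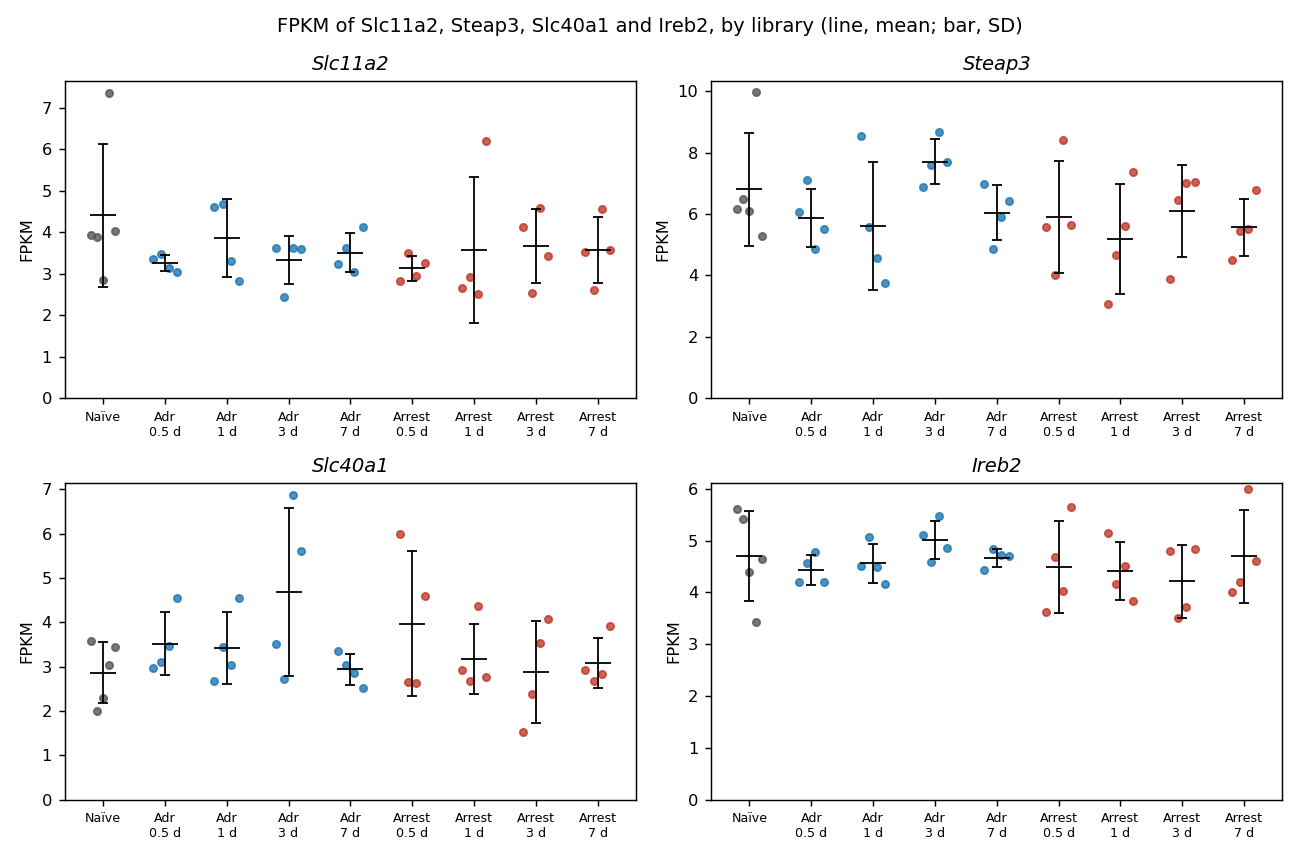
Points are FPKM of Slc11a2, Steap3, Slc40a1 and Ireb2 in single libraries for the 9 groups, black lines are means and bars are SDs. All groups overlap with Naïve in these genes, and Naïve replicate 4 is the highest point of Slc11a2 (7.36 FPKM) and Steap3 (9.98 FPKM).

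Ireb2, an iron regulatory protein controlled mainly through its degradation, was the steadiest member, from 3.44 to 5.99 FPKM. The group means ran from 4.21 FPKM in Arrest at 3 days to 5.01 FPKM in Adr at 3 days, and every fitted difference from Naïve was between -0.12 and 0.09 on the log2 scale (SE 0.12).

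Hamp was listed at 0 in all 5 Naïve libraries and in all 8 Arrest libraries at 1 and 3 days. A count of 0 allows up to 3 fragments, which is 0.225 to 0.566 FPKM depending on the library, and covers counting error only. At least 3 fragments were found in 11 of 37 libraries. Adr hearts at 1 day gave 0, 17.0, 4.54 and 0.095 FPKM, where 17.0 FPKM stands for 108 fragments, and Adr hearts at 7 days gave 2.05, 0, 4.72 and 2.58 FPKM. At 0.5 days Adr hearts gave 0, 0.315, 1.63 and 0 FPKM, and at 3 days 0, 0, 3.03 and 0.389 FPKM. Arrest hearts gave 0, 1.15, 0.942 and 0 FPKM at 0.5 days and 0, 3.86, 0 and 0 FPKM at 7 days. No comparison called Hamp, and no fold is given against groups at 0. Its paralogue Hamp2 was above 0 in 2 libraries and reached at most 0.642 FPKM.

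Hamp was found mostly, but not only, in libraries with high atrial markers. The genes most like it over 37 libraries were Sln (r = 0.92) and Myl4 (r = 0.89), both abundant in atrial muscle. Their rank correlations with Hamp were lower, at 0.74 and 0.57. With Hamp at 0 fragments in 24 libraries, r rests on few libraries. Of the 8 libraries with at least 100 FPKM of the atrial markers Sln, Myl7, Myl4 and Nppa, 7 held at least 3 fragments of Hamp. Of the 29 libraries below that level, 4 did. The level was chosen after seeing the data, so these counts are description only. Arrest 3 days replicate 1 lay just under it, at 98.7 FPKM, with no Hamp fragment. The highest Hamp library, Adr 1 day replicate 2, also had the highest atrial sum, 693 FPKM. The exception above 100 FPKM was Arrest 3 days replicate 4, with 135 FPKM of atrial markers and no Hamp fragment. Nearly all of that sum was Nppa, at 129.9 FPKM. In that group Sln, Myl7 and Myl4 reached at most 0.653, 6.54 and 0.984 FPKM, so this library was high in Nppa alone. Hamp was also found where these 3 markers were low. Arrest 0.5 days replicates 2 and 3 held 8 and 6 Hamp fragments. Sln was 0 throughout that group, and Myl7 and Myl4 reached at most 4.38 and 0.395 FPKM. All Naïve sums were at or below 32.4 FPKM. The part of atrial tissue in the Hamp values was not tested, but the 7 libraries are spread over Adr at 1, 3 and 7 days and Arrest at 7 days.

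**Figure D5:**
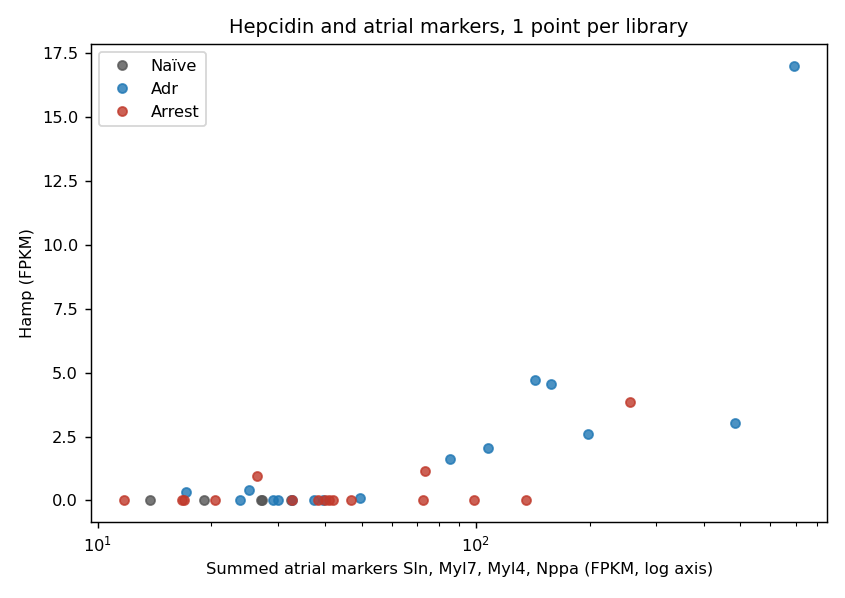
Hamp FPKM against the sum of 4 atrial markers in FPKM on a log axis, 1 point per library, coloured by Naïve, Adr or Arrest. Hamp lies at or below 1.63 FPKM where the atrial sum is under 100 FPKM and reaches 17.0 FPKM at the highest atrial sum, 693 FPKM.

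Each member's nearest genes were taken as those with the highest r over the 37 libraries among 11506 genes. For Tfrc these were Tuba4a (r = 0.87) and Larp4b (r = 0.80). Tuba4a, a tubulin, divided the Adr hearts at 0.5 and 1 day in the same way, with 170 and 197 against 73.8 and 86.2 FPKM at 0.5 days and 233 and 167 against 72.0 and 28.4 FPKM at 1 day. For Fth1 they were Tma7 (r = 0.77) and the ribosomal protein gene Rplp0 (r = 0.76), for Ftl1 Pgd (r = 0.85) and Pabpc1 (r = 0.84), and for Cp the nearest was Tmtc1 (r = 0.90). For Slc40a1 the nearest gene was Ftl1 itself (r = 0.64), followed by Ada (r = 0.59). Without the 2 libraries that stood apart, r was 0.51 with Ftl1 and 0.42 with Ada. For Steap3 the nearest genes were Rnpep (r = 0.73) and Mgl2 (r = 0.69), for Slc11a2 Klhdc10 (r = 0.66) and Cenpc1 (r = 0.64), and for Ireb2 Reep3 and Nucks1 (r = 0.69 each). Without those 2 libraries, r fell to 0.50 and 0.47 for Slc11a2 and to 0.73 and 0.72 for Ftl1. The libraries share depth and tissue composition, so these values describe likeness and nothing further.

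Of 50 other genes of iron handling, 42 passed the filter. In Arrest at 1 day against Naïve 3 of these 42 were called, all higher, which is 7.14% and near the 7.11% of all genes called there, with a median log2 change of 0.13 beside 0.03 over all genes tested. Hfe, which acts with transferrin receptors in iron sensing, gave 12.3, 11.7, 13.8, 14.2 and 13.3 FPKM in Naïve and 23.1, 17.3, 23.0 and 15.9 FPKM in Arrest at 1 day, with no overlap (log2 0.55, SE 0.14, limma adjusted p = 0.016). Cd163, the haemoglobin scavenger receptor of macrophages and 1 of the 8 macrophage markers, gave 3.38 to 4.42 FPKM in Naïve and 11.7, 11.2, 10.5 and 6.27 FPKM in Arrest (log2 1.15, SE 0.35, limma adjusted p = 0.039). Hmox2, the constitutive haem oxygenase, had a log2 change of 0.50 (limma adjusted p = 0.044). The calls of Cd163 and Hmox2 were lost in 8 and 7 of 9 fits without 1 library, and that of Hfe in 2 of 9.

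In Arrest at 0.5 days 2 of the 42 were called, both higher, which is 4.76% against 3.21% of all genes, with a median of 0.10 beside 0.03 over all genes. Slc39a14, a transporter of iron not bound to transferrin, gave 4.94, 4.38, 5.06, 5.83 and 3.19 FPKM in Naïve and 5.55, 9.95, 7.28 and 8.40 FPKM in Arrest at 0.5 days, overlapping in 1 library (log2 0.62, SE 0.15, limma adjusted p = 0.022). Hmox2 gave a log2 change of 0.56 (limma adjusted p = 0.039). The call of Hmox2 was lost in 7 of 9 fits without 1 library, and that of Slc39a14 in 3 of 9. Slc39a14 was also the 1 gene of the 42 called in the test of any difference among the 9 groups (limma adjusted p = 0.041). In the remaining 11 comparisons none was called by limma or limma-voom, with 0 to 13 of the 42 at an unadjusted p of 0.05. The 13 were in Arrest at 1 day against 7 days, where 2456 of all 16530 genes passed that level.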

How the data were processed

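A single FPKM table, deposited by the authors, covered 56748 genes and 37 libraries and also listed lengths and symbols. Per the study's methods, reads were aligned with HISAT2 and the authors' own tests used DESeq2. The build, the counter and the strand are not given in the sources used here, so the table's coordinates were not used, and sequence positions come from GENCODE on GRCm38. FPKM multiplied by length gave whole fragments in 100% of values (tolerance 0.01), which gave depth. Median-ratio rescaling applied 1 factor, 1.01, to every library. Genes with at least 0.5 FPKM in 4 libraries were fitted on log2(FPKM + 1) by limma (version 3.58.1, R 4.3.3; empirical Bayes, variance trend), 1 mean per group over all 37 libraries, with Benjamini-Hochberg adjustment within each comparison. The model was also run on simulated counts, drawn independently for each gene and without an outlying library. That run therefore does not cover libraries that stand apart or shifts in tissue composition. Groups came from the sample labels. No sample label pairs mice across groups, and p-values measure the spread between these libraries. The members and lists were chosen with earlier results of these data known. Named besides the members are other iron genes past the threshold, the 2 genes most like each member, ferritin copies with a mean of at least 1 FPKM, and Hamp2. The second gene for Cp is not reported here. The alternatives were pseudocount, filter, scaling, covariates, weights, voom and left-out libraries. Figures were drawn with matplotlib 3.10.9.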

Additional observations from a re-analysis of the deposited data

Results flagged for a closer look

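Within groups of 4 or 5 libraries, 9 of 78 sets of member values had 1 library far from the others by Dixon's criterion, which chance alone meets in about 1 in 20 groups. Naïve replicate 4 was high in Slc11a2 (7.36 FPKM) and Steap3 (9.98 FPKM), and Slc11a2 was also low in Adr 3 days replicate 2 (2.44 FPKM) and high in Arrest 1 day replicate 4 (6.20 FPKM). Adr 3 days replicate 3 was high in Ftl1 (1313 FPKM) and Hamp (3.03 FPKM). Slc40a1 was high in Arrest 1 day replicate 3 (4.36 FPKM), Cp in Arrest 3 days replicate 1 (25.4 FPKM) and Hamp in Arrest 7 days replicate 2 (3.86 FPKM).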

How the results depend on the processing

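Of 3348 values of members in other settings, 7 lost a call, 12 gained one and none of the called values changed sign. Among values that were not called, 170 had another sign than in the main fit. For Arrest at 1 day against Naïve, 1 member was called after quantile normalization (Tfrc), 0 with the description number as a covariate, and 0 to 2 when 1 library of the compared groups was left out. Ftl1 was called as well, making 3 members, with sample quality weights, without Adr 3 days replicate 3, without that library and Naïve replicate 4, and in the libraries under 100 FPKM of atrial markers (limma adjusted p from 0.036 to 0.045), the last 2 settings chosen after seeing the data. With the replicate block, which treats equal replicate numbers as paired, both stayed called (Tfrc -1.98, limma adjusted p = 0.034, and Fth1 0.53, limma adjusted p = 0.05), while calls over all genes went from 1176 to 768. Over all genes fitted, 1 of 52 same-number pairs correlated above 0.1 in their deviations (-0.28 to 0.24). Such correlations cannot exclude handling shared by some libraries or felt by some genes. For Arrest at 0.5 days 1 member (Fth1) was called without Adr 3 days replicate 3 and Naïve replicate 4. For Arrest at 1 against 7 days sample quality weights called 2 (Fth1 and Ftl1). Among the 9 groups 2 were called with quality weights (Fth1 and Tfrc), 1 without Adr 3 days replicate 3 (Fth1), 1 without both libraries, and 0 to 1 when 1 library was left out.

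Calls over all genes for Arrest at 1 day ranged from 34 with the description number to 1947 with quality weights. The split of 641 higher and 535 lower became 391 and 622 after quantile normalization and 396 and 424 after removal of the trend with gene length. The causes were not tested. With 4 or 5 libraries in a group and Tfrc SDs as wide as 9.18 FPKM, a comparison that misses the threshold does not show equal levels, and Hamp below a floor of up to 0.566 FPKM, depending on the library, cannot be told from 0.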
